A study of Mus musculus with 32 samples.

Results

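The carbohydrate-sensing lipogenic regulators described here are 4 genes, Mlxipl, Srebf1, Thrsp and Txnip, chosen by gene symbol among the 10055 different genes that had a row in at least 1 of 4 deposited organ tables. The tables came from bulk poly(A) RNA-seq of 4 organs (liver, and from the small bowel the duodenum, jejunum and ileum) in male wild-type (WT) mice and in male mice deficient in ketohexokinase (Khk knockout, KO). Each organ had 4 KO and 4 WT libraries, numbered 1 to 4 in each genotype, which makes 8 groups and 32 libraries. The study asked how fructose handling through ketohexokinase bears on iron homeostasis. The labels give no age, background strain, diet, hour of collection or knockout allele, and do not say whether the mice lacked the enzyme in every cell or whether libraries with the same number came from the same mouse. Nothing in them says that the 4 libraries of a group came from separate mice, so each p-value measures the spread between these libraries.

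Mlxipl encodes ChREBP, a transcription factor that dimerises with Mlx and binds carbohydrate response elements when hexose phosphates accumulate in the cell. Srebf1 encodes SREBP-1, a membrane-bound precursor that Scap carries to the Golgi for cleavage, after which the released fragment activates genes of fatty acid synthesis; insulin and liver X receptors raise its expression. Thrsp, also called Spot14, and Txnip are classical carbohydrate-induced genes: the Thrsp protein promotes lipogenesis in liver and fat, and the Txnip protein is an alpha-arrestin that binds thioredoxin and restrains glucose uptake. Ketohexokinase forms fructose 1-phosphate, the first step by which fructose enters hepatic and intestinal metabolism and feeds these sensors.

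The sequences just upstream of the start sites are shown because these regulators are known for the elements through which carbohydrate reaches them, and the letters differ between members. They are RefSeq sequences of build GRCm38.p6, the last 150 bases before an annotated start, written in the direction of transcription, with matches to the motifs named next in capitals. They lie at chr3:96557807-96557956 (plus strand) for Txnip, chr5:135089740-135089889 (plus strand) for the first Mlxipl start, chr5:135106741-135106890 (plus strand) for the second Mlxipl start and chr7:97417551-97417700 (minus strand) for Thrsp. The Thrsp stretch lies inside the Thrsp gene as annotated for the counts, chr7:97412938-97417730, which begins further upstream than the RefSeq start.
Txnip: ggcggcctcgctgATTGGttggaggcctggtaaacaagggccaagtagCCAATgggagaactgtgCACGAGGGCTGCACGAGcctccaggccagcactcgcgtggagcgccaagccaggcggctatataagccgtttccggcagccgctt
Mlxipl, first start: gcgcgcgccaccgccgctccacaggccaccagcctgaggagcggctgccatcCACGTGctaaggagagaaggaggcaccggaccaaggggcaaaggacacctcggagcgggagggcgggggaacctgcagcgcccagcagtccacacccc
Mlxipl, second start: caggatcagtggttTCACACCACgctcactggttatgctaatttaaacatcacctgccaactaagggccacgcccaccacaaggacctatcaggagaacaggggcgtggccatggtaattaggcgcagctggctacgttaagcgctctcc
Thrsp: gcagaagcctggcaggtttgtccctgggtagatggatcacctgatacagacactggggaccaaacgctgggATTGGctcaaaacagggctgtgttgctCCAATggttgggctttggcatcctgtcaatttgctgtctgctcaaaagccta

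In Txnip the capitals in the middle mark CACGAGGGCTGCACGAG, beginning 85 bases before the start, a match to the spaced pair of E-box-like parts of a carbohydrate response element (searched on both strands as CACGNG and CNCGNG with 5 bases of any kind between them). That pattern was found in 0.365% of all 32851 RefSeq promoter windows of 300 bases, which run from 250 bases before to 50 bases after a start, and in no window of the other members. The first Mlxipl start had a plain E-box, CACGTG, beginning 98 bases upstream, which 7.15% of windows held. The second Mlxipl start had TCACACCAC beginning 136 bases upstream, a match to the sterol regulatory element (searched as TCACNCCAC on both strands, found in 1.24% of windows). The remaining capitals are CCAAT or its reverse complement ATTGG, held by 37.4% of windows: in Txnip at 102 and 137 bases upstream, and in Thrsp at 52 and 79 bases upstream. Srebf1 has 3 annotated starts, and their windows held only CCAAT matches, beginning 166 bases before the start at position 60222581 and 30 bases before the start at position 60210471 of chromosome 11. Neither AGGTCA repeated after 4 bases, the element bound by thyroid hormone and liver X receptors (0.0152% of windows) nor TATAAA (13.6%) was found in a window of any member. These matches describe letters in the windows and were not tested as binding sites. Sequence more than 250 bases before a start was not searched, so an element lying there would be missed. The tables count reads per gene, so the 2 Mlxipl starts and the 3 Srebf1 starts cannot be told apart in the values.

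Of the 16 combinations of a member and an organ, 7 had a row. Mlxipl had a row for liver and duodenum, Srebf1 for ileum, Thrsp for liver, jejunum and ileum, and Txnip for duodenum. The liver table held 6375 genes, the duodenal 1567, the jejunal 2413 and the ileal 5187, and every row had an unadjusted p under 0.05 in the authors' deposited table. A row is therefore itself a selection: its gene had to differ between genotypes by that test, and the number of members with a row supports nothing. For scale, 34.9% of the genes the authors adjusted over had a row in liver, with 9.16% for duodenum, 16.7% for jejunum and 29.6% for ileum. The other 9 combinations, among them Srebf1 and Txnip in liver, were not analysed here.

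The reads in a table came to between 1722220 and 14331517 per library, which is the depth of the listed genes and not of the library. Khk itself was lower in every KO library than in every WT library of each organ, at 11.1% (liver), 4.59% (duodenum), 9.25% (jejunum) and 6.65% (ileum) of the WT mean, which checks the genotype labels. Fold changes followed gene length: in liver, 73.0% of the 200 protein-coding rows nearest to Mlxipl in length were higher in KO, against 9.5% of the 200 nearest to Thrsp, a shorter gene. Each member is therefore given beside genes of its own length and in a fit with the length trend removed. That trend could be estimated only from the listed rows, which were selected for a difference. The fits with a trend removed used the authors' size factors, so they differ from the edgeR refit in scaling too. Normalised counts are raw counts divided by the authors' size factor for the library, a linear scale on which libraries of an organ can be compared. Log2 fold changes are KO over WT throughout, and errors on means are SDs of 4 libraries. In bulk tissue, a lower value can come from fewer cells of a type or from less RNA per cell, and these cannot be told apart.

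Mlxipl, the gene for the sensor itself, was higher in KO liver. Its normalised counts were 6620, 6790, 5877 and 4871 in the 4 KO liver libraries and 3626, 4432, 3292 and 3568 in the 4 WT libraries. The lowest KO library lay above the highest WT library, a separation shown by 65.0% of the rows of the liver table. The means were 6040 ± 874 in KO and 3729 ± 491 in WT (SD, n = 4 each), a ratio of 1.62. The exact two-sided permutation test gave p = 0.0286, the smallest value that 4 against 4 libraries allow, and 0.0999 after Benjamini-Hochberg adjustment over the 7 member rows. The authors' deposited table gives a log2 fold change of 0.70 with an adjusted p of 0.000272. The edgeR quasi-likelihood refit gave 0.72 ± 0.15 (SE) with a Benjamini-Hochberg adjusted p of 0.0196. Mlxipl and Thrsp were both called in liver in the authors' deposited table, where 23.9% of genes were called, and Mlxipl alone in the edgeR refit, where 14.7% were called, and in the DESeq2 refit, where 24.2% were called.

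Among the 200 protein-coding liver rows nearest to Mlxipl in length, between 5309 and 5777 bases, the median log2 fold change in the authors' deposited table was 0.55, and 67.0% lay below Mlxipl. With the length trend removed, the edgeR value was 0.42 ± 0.13 (SE) with an adjusted p of 0.122. With the trend over GC content removed in its place it was 0.95, with an adjusted p of 0.0122. Leaving out KO library 1, 2, 3 or 4 or WT library 4 gave edgeR log2 fold changes of 0.64, 0.62, 0.69, 0.78 and 0.69 with adjusted p of 0.0616, 0.0705, 0.0509, 0.0504 and 0.0562, so the call was lost each time while the direction stayed. Mlxipl (ENSMUSG00000005373, build GRCm38, chr5:135089890-135138382, plus strand) shares 4.24% of its exon bases with Gm43500 on the opposite strand, which had a liver row of its own at 27.5 ± 4.88 normalised counts in KO and 11.9 ± 8.77 in WT (SD, n = 4 each). Whether the libraries kept strand is not given in the sources used here, so reads from the shared bases cannot be assigned to either gene.

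Marker genes of other cell types and of the clock were summed in the same liver libraries, with no correction for gene length. Of 10 marker lists with a liver row, 4 had summed counts that did not overlap between genotypes, where 65.0% of single liver rows did not. The 6 circadian clock genes with a row, of 16 listed, were all called higher in KO in the authors' deposited table, where 12.5% of all genes were, and summed to between 10773 and 11104 in KO and between 5070 and 8295 in WT. The 5 blood and erythroid genes with a row, of 7 listed, were all called lower, where 11.4% of all genes were, and summed to between 2967 and 3515 in KO and between 4584 and 10959 in WT. The 7 hepatocyte markers with a row, of 10 listed, summed to between 399874 and 453938 in KO and between 456729 and 637837 in WT, but the list was split. Among them, 5 were called lower in the authors' deposited table, Tat, tyrosine aminotransferase, was called higher (0.70, adjusted p = 0.0154), and Cps1, a urea cycle enzyme, stood at 0.34 (adjusted p = 0.0845). The remaining list was the pancreatic acinar one, with a single row, Ctrl, at 0 to 4.4 normalised counts in WT and at least 6.0 in KO. A row had to pass p under 0.05, so these counts start from selected genes. With the length trend removed, many single markers moved toward 0 or changed sign. Among clock genes, the edgeR values of Per3 and Tef went from 0.87 and 0.50 to 0.10 and -0.13. Per2 was still at 1.04 (adjusted p = 0.00197). Alas2 went from -0.57 to -0.09 and Apoa2 from -0.52 to 0.23, while Hbb-bt stood at -1.13 (adjusted p = 0.0345) and Tat at 1.21 (adjusted p = 0.0185). The part of these lists in the Mlxipl values was not tested.

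**Figure D1:**
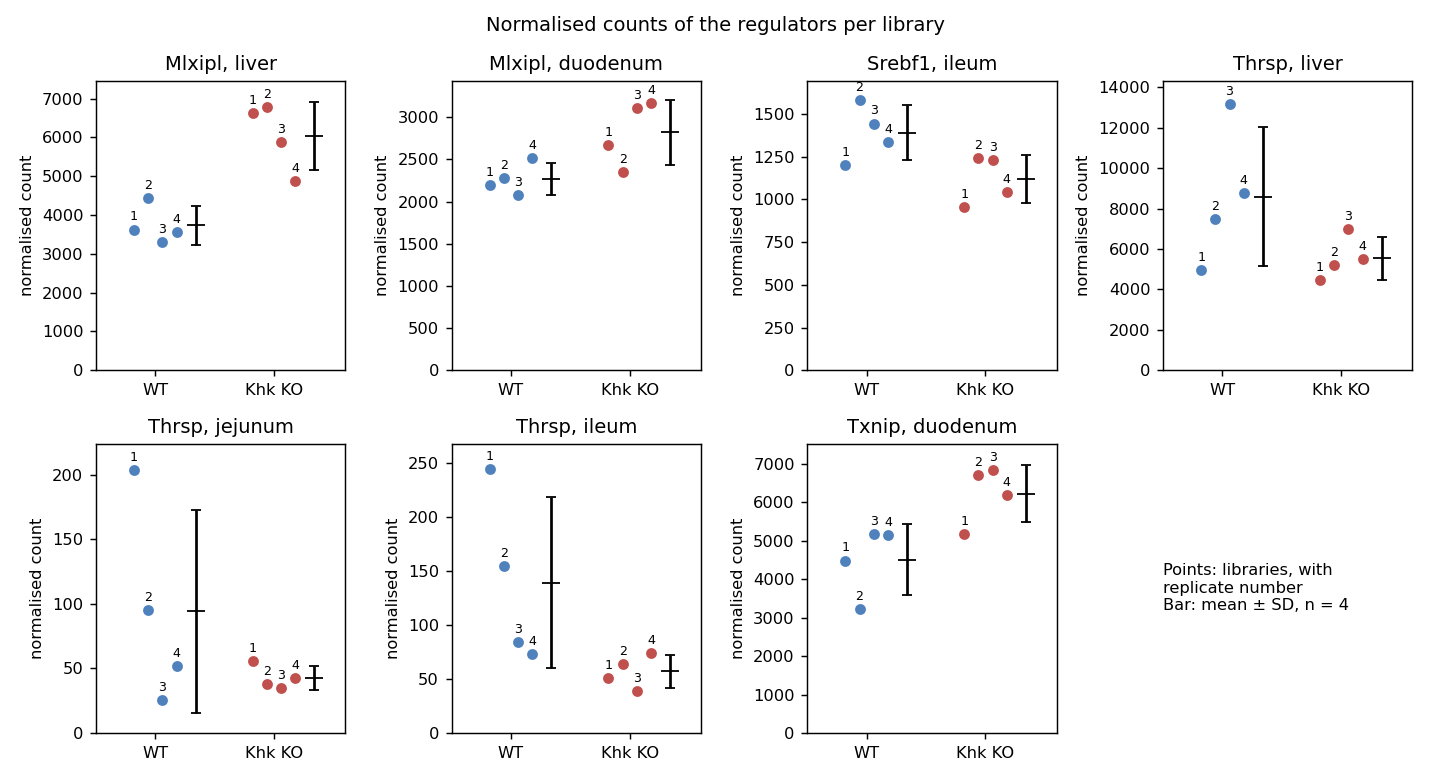
Normalised counts (vertical axes, linear, starting at 0) of each regulator in each library, WT beside Khk KO, for the 7 gene and organ pairs with a row; points are libraries, bars are means and SD. Mlxipl in liver and Txnip in duodenum show 4 KO points above all 4 WT points, and the WT points of Thrsp spread far more than its KO points.

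In duodenum, Mlxipl was measured at 2676, 2350, 3106 and 3169 normalised counts in KO and at 2200, 2282, 2077 and 2520 in WT. Here 3 of 4 KO libraries lay above the highest WT library and the other lay inside the WT range. The means were 2825 ± 385 and 2270 ± 187 (SD, n = 4 each), a ratio of 1.24 with an exact two-sided permutation p of 0.0571. The authors' deposited table gives 0.32 with an adjusted p of 0.493, and the edgeR refit 0.45 ± 0.15 (SE) with an adjusted p of 1.0, so the difference did not pass the test. No member was called in duodenum by the authors' deposited table, where 0.224% of genes were called, by edgeR (0.00640%) or by DESeq2 (0.237%). Both members with a row, Mlxipl and Txnip, were under an unadjusted p of 0.05 in both refits. The refits used the same counts, and in the authors' deposited table every row was under 0.05 by selection, so this adds no support. The 200 protein-coding rows nearest in length had a median of 0.30 in the authors' deposited table, and 53.0% lay below Mlxipl. With the authors' size factors the edgeR value was 0.32, and 0.19 once the length trend was also removed. The duodenal effect minus the liver effect was -0.27 ± 0.22 (SE) in an edgeR interaction fit, with an adjusted p of 0.428, so a difference between the organs was not shown. Scaling matters to this organ, since the median duodenal gene lay 0.15 higher on the log2 scale with the TMM factors of the refit than with the size factors the authors deposited.

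On the FPKM scale, which divides by gene length, WT Mlxipl stood at 57.9 ± 7.7 in liver and 19.9 ± 1.64 in duodenum (SD, n = 4 each). The organ tables were normalised separately and no test was made between these levels. The 3 liver genes nearest to Mlxipl in pattern over the 8 libraries were Wdfy1, Ppp4r4 and Pnisr, with root mean square differences of 0.10, 0.12 and 0.13 in mean-centred log2(normalised count + 1), where the median of 4566 genes was 0.58. In duodenum the nearest were Ccnl2, a cyclin, Hook3, a microtubule adaptor, and Rsad1, at 0.071, 0.074 and 0.074 against a median of 0.40 over 1026 genes.

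Srebf1, the gene for the insulin-responsive partner regulator of fat synthesis, had a row only for ileum. Its normalised counts there were 958, 1244, 1230 and 1043 in KO and 1200, 1582, 1445 and 1336 in WT. The ranges overlapped: 2 KO libraries lay below the lowest WT library and 2 lay just above it. The means were 1119 ± 141 and 1391 ± 162 (SD, n = 4 each), a ratio of 0.804 with an exact two-sided permutation p of 0.0857. The authors' deposited table gives -0.32 with an adjusted p of 0.149, and the edgeR refit -0.32 ± 0.14 (SE) with an adjusted p of 0.142.

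Srebf1 lay against the direction of most ileal genes of its length. Of the 200 protein-coding rows between 5379 and 5902 bases, 68.0% were higher in KO, the median in the authors' deposited table was 0.43, and 28.0% lay below Srebf1. With the length trend removed, the edgeR value was -0.53 with an adjusted p of 0.0493, past the threshold. With the GC trend removed it turned to 0.14, with an adjusted p of 1.0, so neither the direction nor the call held over both corrections. Without WT library 1, the lowest of the WT libraries, edgeR gave -0.43 with an adjusted p of 0.0183. This was the only 1 of the 8 fits without 1 library that passed. The others had adjusted p between 0.158 and 0.391, and leaving out the lowest WT library raises the WT mean. Srebf1 (ENSMUSG00000020538, build GRCm38, chr11:60199089-60222581, minus strand) shares 1.93% of its exon bases with Rai1 on the opposite strand and 1.17% with Mir6922 on its own. The genes nearest in pattern were Pold2, a DNA polymerase delta subunit, Ap1g2, an adaptor complex subunit, and Vps72, a chromatin remodelling subunit, at 0.068, 0.084 and 0.088 against a median of 0.41 over 3966 genes.

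**Figure D2:**
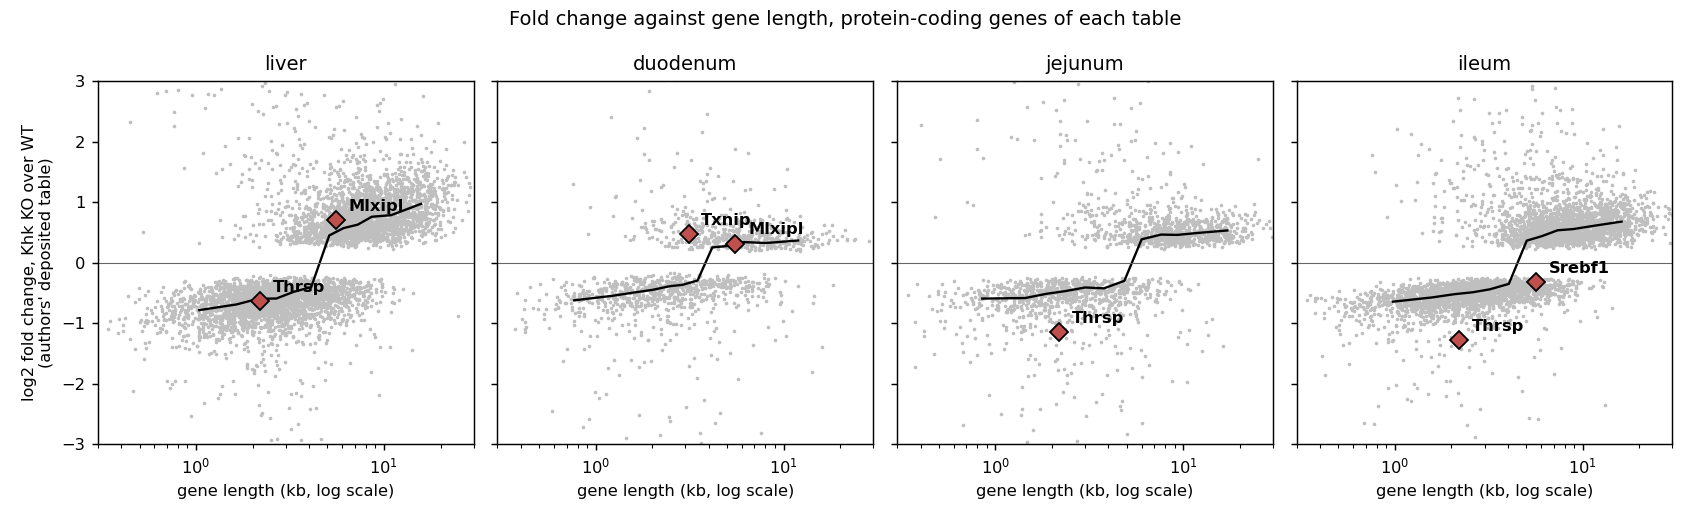
Log2 fold change of KO over WT in the authors' deposited tables (vertical axis) against gene length in kilobases (horizontal axis, log scale) for the protein-coding rows of each organ, with a line for the running median and the regulators marked; points beyond the axis limits are not drawn. Thrsp in liver lies among genes of its length, Thrsp in ileum lies below 98.0% of them, and Txnip in duodenum and Srebf1 in ileum lie on the side away from the median of theirs.

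Thrsp, the lipogenic effector induced by carbohydrate and thyroid hormone, had lower mean counts in KO in each of the 3 organs with a row, and passed both the deposited test and the refit in ileum only. WT levels on the FPKM scale were 339 ± 140 in liver, 3.03 ± 1.66 in ileum and 2.57 ± 2.19 in jejunum (SD, n = 4 each). Liver was by far the highest, with no test made between the separately normalised tables, and ileum and jejunum differed by less than the spread of their libraries. In liver Thrsp also exceeded WT Mlxipl at 57.9 FPKM. The WT libraries varied more than the KO libraries: the coefficient of variation was 40.2% in WT and 19.3% in KO for liver, 83.4% and 21.5% for jejunum, and 56.8% and 27.0% for ileum.

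In liver, Thrsp was measured at 4452, 5218, 7003 and 5487 normalised counts in KO and at 4939, 7479, 13196 and 8778 in WT. The genotypes overlapped, since WT library 1 lay below 3 of the KO libraries, and WT library 3 lay far above all others. The means were 5540 ± 1069 and 8598 ± 3455 (SD, n = 4 each), a ratio of 0.644 with an exact two-sided permutation p of 0.143. The authors' deposited table gives -0.63 with an adjusted p of 0.0496, just past the threshold. The edgeR refit gave -0.60 ± 0.25 (SE) with an adjusted p of 0.13, which did not pass.

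The liver value of Thrsp depended on single WT libraries and on gene length. Without WT library 1 edgeR gave -0.83 with an adjusted p of 0.00506, and without WT library 3 it gave -0.34 with an adjusted p of 0.357. The 200 protein-coding rows nearest in length, between 2082 and 2303 bases, had a median of -0.59 in the authors' deposited table, and 42.5% lay below Thrsp. Removal of the length trend brought the edgeR value to -0.03. Khk itself was also highest in WT library 3 and lowest in WT library 1 of liver, at 11769 and 5784 normalised counts. Of the 10 marker lists with a liver row, 6 were highest in WT library 3, the hepatocyte and the blood and erythroid lists among them, and the clock genes were lowest there. The macrophage and Kupffer list, with 3 of 7 genes in the table, summed to 2541, 4851, 7596 and 5530 in WT libraries 1 to 4, the same order as Thrsp, and to between 2134 and 3326 in KO. The B and plasma cell and the goblet and Paneth lists also had that order. The part of these markers in the Thrsp values was not tested. The liver genes nearest to Thrsp in pattern were Prmt7, an arginine methyltransferase, Ctu2, a tRNA-modifying enzyme subunit, and Trip6, at 0.11, 0.12 and 0.14 against a median of 0.51 over 4566 genes.

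In jejunum, Thrsp counts were low, at 55.7, 37.6, 35.0 and 42.7 normalised counts in KO and 204, 95.6, 25.6 and 52.0 in WT. The KO libraries lay inside the WT range, and WT library 1 stood at 3.54 times the average of WT libraries 2, 3 and 4. Genotypes that do not overlap were seen in 56.0% of the jejunal rows. The means were 42.7 ± 9.2 and 94.4 ± 78.8 (SD, n = 4 each), with an exact two-sided permutation p of 0.314. The authors' deposited table gives -1.14 with an unadjusted p of 0.0312 and lists the adjusted p as 1, as it does for 759 low-count genes of this organ. The edgeR refit gave -1.09 ± 0.53 (SE) with an adjusted p of 0.342, and -0.49 with an adjusted p of 1.0 without WT library 1. The 200 protein-coding jejunal rows nearest to Thrsp in length had a median of -0.50 in the authors' deposited table and 8.5% lay below Thrsp; removal of the length trend gave an edgeR value of -0.59. No member was called in jejunum by the authors' deposited table (0.759% of genes called), by edgeR (0.0101%) or by DESeq2 (3.51%). Thrsp was under an unadjusted p of 0.05 in the authors' deposited table, as every row was, and in neither refit.

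White fat also expresses Thrsp, and adipocyte markers ordered the WT jejunal libraries as Thrsp did. Of 12 listed markers, 6 had a row (Retn, Adipoq, Cfd, Fabp4, Plin1 and Lpl), none of them called, and each of the 6 placed the 4 WT libraries in the same order as Thrsp, with WT library 1 highest and WT library 3 lowest. Adipoq, the adipocyte hormone adiponectin, stood at 242, 76.9, 3.34 and 62.4 normalised counts in WT libraries 1 to 4 and between 9.5 and 31.7 in KO. The 6 markers summed to 4096, 1252, 372 and 1025 in WT libraries 1 to 4, and to between 351 and 700 in KO, and none of the 6 was at 0 in any library. The order did not carry over to KO, where all 6 markers were lowest in library 4 and Thrsp was lowest in library 3. WT library 1 also stood apart beyond fat. It was the highest WT library for 7 of the 9 marker lists with a jejunal row, among them smooth muscle (22433 against 9428 to 14575 in the other WT libraries) and the hepatocyte list (408800 against 158034 to 197448), and for Khk (13852 against 5579 to 6647). The jejunal hepatocyte sum was almost all Apoa1, with a WT mean of 232872, and is no measure of hepatocytes. The WT means of Cyp2e1, Ttr and Ass1 were 203, 70.7 and 96.3. Fabp4, the adipocyte fatty acid binding protein, was also among the 3 genes nearest to Thrsp in pattern, with Acer1, a ceramidase, and Nxn, at 0.37, 0.32 and 0.38 against a median of 0.92 over 1619 genes. The part of fat tissue and of the other lists in the Thrsp values was not tested.

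In ileum, Thrsp fell in KO. Its normalised counts were 50.6, 64.0, 39.0 and 74.2 in KO and 245, 155, 83.9 and 73.5 in WT. All but KO library 4 lay below the lowest WT library, and the ranges overlapped by that library, while 66.8% of the ileal rows had no overlap. The means were 56.9 ± 15.4 and 139 ± 79.1 (SD, n = 4 each), a ratio of 0.409 with an exact two-sided permutation p of 0.0571. Benjamini-Hochberg adjustment of the permutation p over the 7 member rows gave 0.0999. The authors' deposited table gives -1.29 with an adjusted p of 0.0135, and the edgeR refit -1.25 ± 0.37 (SE) with an adjusted p of 0.0475. Thrsp was the 1 member called in ileum by the authors' deposited table (15.6% of genes called), by edgeR (13.9%) and by DESeq2 (22.0%).

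Among the 200 protein-coding ileal rows nearest to Thrsp in length, between 2053 and 2333 bases, the median in the authors' deposited table was -0.50 and 2.0% lay below Thrsp. The call was close to the threshold, and the authors' size factors alone gave an edgeR value of -1.28 with an adjusted p of 0.06. Removal of the length trend gave an edgeR value of -0.76 with an adjusted p of 0.425, and without KO library 1, 2, 3 or 4 or WT library 1 or 2 it was -1.20, -1.31, -1.10, -1.39, -0.92 and -1.17 with adjusted p of 0.119, 0.096, 0.115, 0.0693, 0.0698 and 0.112. Of the listed adipocyte markers, 6 of 12 had a row in ileum, and 2 of them, the lipases Pnpla2 and Lipe, which other cells express too, were called lower in KO in the authors' deposited table. The 6 summed to between 3692 and 4308 in KO and to 8441, 7069, 4799 and 4608 in WT libraries 1 to 4, and 3 of the 6 placed the WT libraries in the same order as Thrsp. Most of that sum came from Pnpla2 (mean 2215 in KO and 3149 in WT) and Lipe (734 and 1116). Plin1, Cfd, Cidec and Retn each overlapped between genotypes and were not called (adjusted p of 0.123 to 0.156 in the authors' deposited table). In all, 6 of the 10 marker lists with an ileal row did not overlap between genotypes, where 66.8% of single ileal rows did not. The clock list was higher in KO (5918 to 7591 against 3334 to 4755). The adipocyte, enterocyte, blood and erythroid (177 to 363 against 376 to 738), B and plasma cell, and goblet and Paneth lists (126045 to 149872 against 182087 to 204560) were lower. WT library 1 was the highest WT library for 5 of the 10 lists and for Khk, at 2617. These sums are not corrected for gene length. With the length trend removed, the edgeR values of Clock, Lyz1 and Igkc went from 0.87, -0.54 and -0.70 to 0.20, -0.03 and -0.10. Those of Nr1d2, Muc2 and Lipe stood at 0.71, -0.77 and -0.85, each with an adjusted p under 0.05. The part of these lists in the Thrsp values was not tested. The genes nearest in pattern were Lsm7, an RNA-processing factor, Gcat and Gchfr, a regulator of tetrahydrobiopterin synthesis, at 0.20, 0.24 and 0.26 against a median of 0.74 over 3967 genes.

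**Figure D3:**
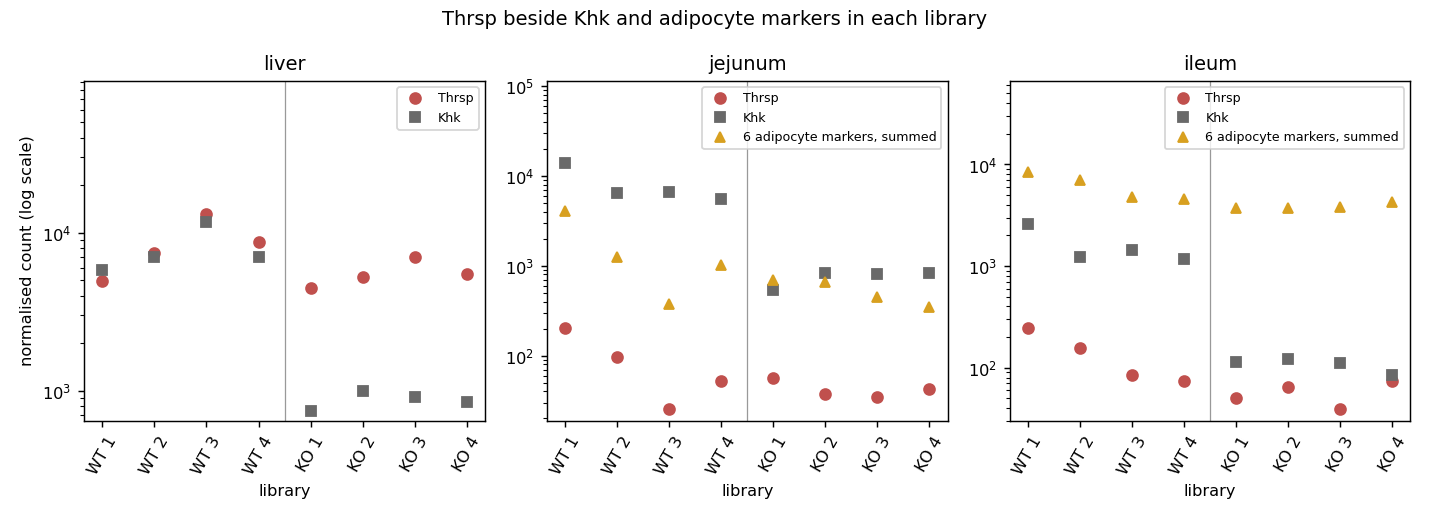
Normalised counts (vertical axis, log scale) of Thrsp, Khk and, in jejunum and ileum, the summed adipocyte markers in each library (horizontal axis) of the 3 organs with a Thrsp row, KO and WT separated by a vertical line. In jejunum the markers and Thrsp both peak in WT library 1 and are lowest among WT libraries in WT library 3.

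The Khk effect on Thrsp was compared between organs in edgeR interaction fits over the genes that both tables held. The jejunal minus the liver effect was -0.50 ± 0.56 (SE, adjusted p = 0.634), the ileal minus the liver effect -0.64 ± 0.44 (adjusted p = 0.757), and the ileal minus the jejunal effect -0.16 ± 0.68 (adjusted p = 0.998). With the Mlxipl comparison these were 4 tests, and in none was a difference between organs shown. All 4 fits treated the libraries of both organs as independent, although the labels do not say whether organs came from the same mice. Thrsp (ENSMUSG00000035686, build GRCm38, chr7:97412938-97417730, minus strand) shares no exon base with another annotated gene.

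Txnip, the alpha-arrestin whose promoter carries the paired E-box-like parts shown above, had a row for duodenum alone. Its normalised counts were 5188, 6707, 6842 and 6190 in KO and 4488, 3224, 5172 and 5159 in WT. All 4 KO libraries lay above all 4 WT libraries, by a narrow margin between KO library 1 and WT library 3, and 45.9% of the rows of that table separated the genotypes in this way. The means were 6232 ± 750 and 4511 ± 915 (SD, n = 4 each), a ratio of 1.38 with an exact two-sided permutation p of 0.0286, the smallest possible. Benjamini-Hochberg adjustment of the permutation p over the 7 member rows gave 0.0999. The authors' deposited table gives 0.47 with an unadjusted p of 0.00785 and an adjusted p of 0.449. The edgeR refit gave 0.60 ± 0.17 (SE) with an adjusted p of 0.958, so the difference did not pass a test adjusted over all genes.

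The size of the Txnip difference varied little between fits: over the 9 fits with all 8 libraries it ran from 0.47 to 0.63. With the authors' size factors it was 0.47, and 0.61 once the length trend was also removed. Of the 200 protein-coding duodenal rows between 2646 and 3682 bases, 35.0% were higher in KO, the median in the authors' deposited table was -0.35, and 79.0% lay below Txnip. On the FPKM scale Txnip stood at 97.1 ± 11.7 in KO and 70.3 ± 14.3 in WT (SD, n = 4 each), above Mlxipl in the same libraries at 24.8 ± 3.38 and 19.9 ± 1.64. The 5 clock genes with a row in duodenum, of 16 listed, summed to between 6159 and 7029 in KO and between 4236 and 5071 in WT. With the macrophage list (210 to 222 against 118 to 200) they were 2 of 8 lists with no overlap, where 45.9% of single duodenal rows had none. That macrophage list had 3 of 7 genes with a row, none called, and its sum rested on Adgre1, at 213 in KO and 143 in WT. Cd5l (0.747 in KO against 9.92 in WT) and Marco (0.42 against 5.89) were lower in KO, at very low counts. The part of both lists in the Txnip values was not tested. Txnip (ENSMUSG00000038393, build GRCm38, chr3:96557957-96561883, plus strand) shares 19.4% of its exon bases with the antisense gene Gm15441, which had no row in any table, and reads from the shared bases cannot be assigned. The genes nearest in pattern were Mzb1, a plasma cell chaperone cofactor, Fam117a and Dedd2, at 0.13, 0.15 and 0.15 against a median of 0.49 over 1026 genes.

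**Figure D4:**
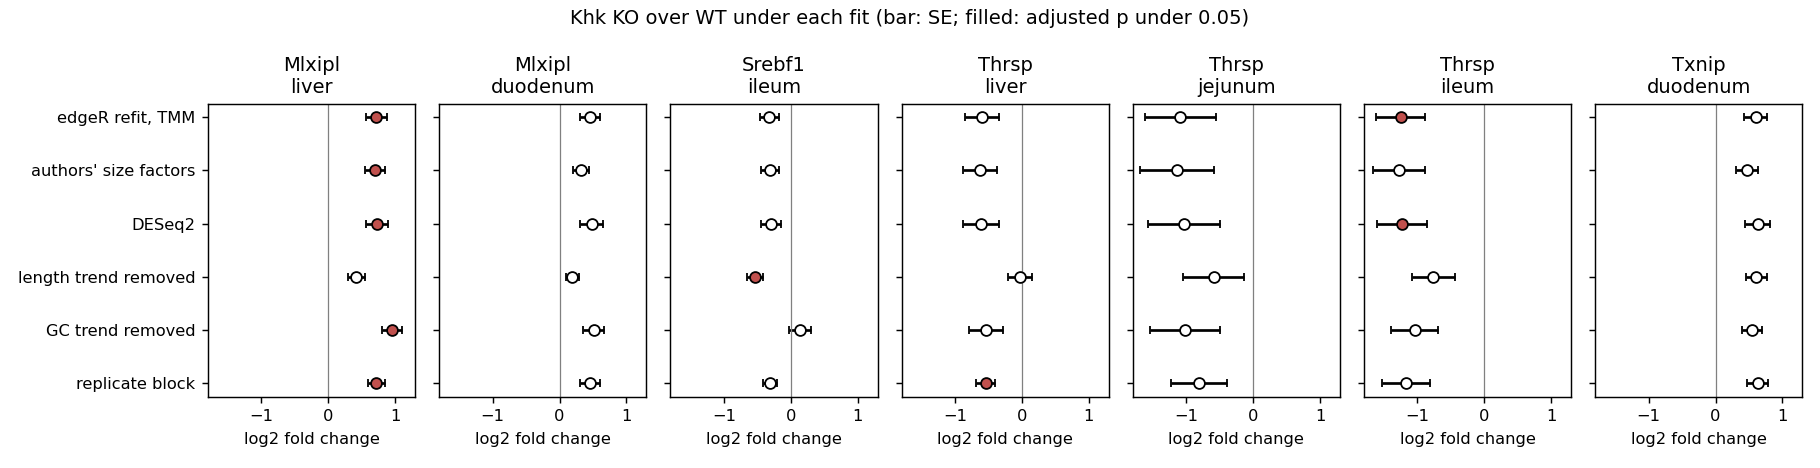
Log2 fold change of KO over WT (horizontal axis) with its SE for the 7 gene and organ pairs under fits with all 8 libraries (vertical axis, 1 row per fit). The fits drawn are the edgeR refit with TMM, the authors' size factors, DESeq2, removal of the length trend, removal of the GC trend, and the replicate block. Filled points have an adjusted p under 0.05. Mlxipl in liver stays between 0.42 and 0.95, Thrsp in liver goes from -0.63 to -0.03, Srebf1 in ileum crosses 0, and Txnip in duodenum stays between 0.47 and 0.63.

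Around the 4 regulators, 82 genes of their pathways were examined in 5 lists: partners of ChREBP, processing and partners of SREBP, shared target genes, the Thrsp family with thyroid hormone response, and thioredoxin with the alpha-arrestins. In liver 44 of the 82 had a row and 32 were called in the authors' deposited table, 14 higher and 18 lower in KO. That is 39.0% of the listed genes, where 23.9% of all genes were called, 12.5% higher and 11.4% lower. The median log2 fold change of the listed rows was -0.35, where that of the whole liver table was 0.42. The edgeR refit called 23, 10 higher and 13 lower, and 7 with the length trend removed.

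Among the ChREBP partners in liver, 9 of 14 had a row and 6 were called, 3 in each direction. Mlx, the dimer partner, was lower in KO at 404 ± 26.0 against 644 ± 189 normalised counts (SD, n = 4 each), with an edgeR log2 fold change of -0.64 and an adjusted p of 0.0457, and of -0.06 with the length trend removed. The coactivator Crebbp was higher in KO, with an edgeR value of 1.36, and 0.47 with the length trend removed (adjusted p = 0.0302). Of the SREBP genes 7 of 16 had a row and 5 were called, 2 higher and 3 lower; Nr1h3, the liver X receptor alpha that drives Srebf1, was lower, with an edgeR value of -0.74 (adjusted p = 0.0206), and stood at -0.25 with the length trend removed. Of the targets 15 of 31 had a row and 14 were called, 5 higher and 9 lower. The targets did not move one way: Fasn, fatty acid synthase, was higher at 8055 ± 1775 against 4485 ± 1463 normalised counts, and Scd1, stearoyl-CoA desaturase, was lower at 39794 ± 12158 against 88328 ± 21815. With the length trend removed the edgeR values were 0.05 for Fasn and -1.24 for Scd1 (adjusted p = 0.015). Of the Thrsp and thyroid hormone genes 5 of 7 had a row and 3 were called, all higher: Ncoa1, Ncor1 and Klf9. With the length trend removed their edgeR values were 0.59, 0.23 and 0.85, none past the threshold (adjusted p = 0.0522, 0.788 and 0.0583). Of the thioredoxin genes 8 of 14 had a row and 4 were called, 1 higher and 3 lower. Txn2, mitochondrial thioredoxin, was lower with an edgeR value of -0.61 (adjusted p = 0.0265), and -0.56 with the length trend removed (adjusted p = 0.0396).

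In ileum 35 of the 82 had a row and 23 were called in the authors' deposited table, 10 higher and 13 lower, or 28.0% of the listed genes, where 15.6% of all genes were called, 8.76% higher and 6.86% lower. The median of the listed rows was -0.39 and that of all ileal rows 0.30. The edgeR refit called 22, 11 in each direction, and 14 with the authors' size factors. With the length trend removed 4 were called, among them Tkt, transketolase, at -0.87, Klf9, a glucocorticoid and thyroid hormone target, at 1.21, and Arrdc4 at 0.91. Arrdc4 is the close relative of Txnip and another ChREBP target, and stood at 839 ± 125 normalised counts in KO and 488 ± 70.2 in WT ileum (SD, n = 4 each), with no overlap. By list, the calls in the authors' deposited table were 3 of 14 ChREBP partners (2 higher), 3 of 16 SREBP genes (1 higher), 8 of 31 targets (3 higher), 4 of 7 Thrsp and thyroid hormone genes (3 higher) and 5 of 14 thioredoxin genes (1 higher).

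In jejunum 16 of the 82 had a row and 2 were called in the authors' deposited table, where 0.759% of all genes were called, both lower, among them Dio1, the deiodinase that makes active thyroid hormone, at -0.64 (adjusted p = 0.0307). With the length trend removed, the edgeR value of Dio1 was -0.18, which was not called. The edgeR refit called none of the 16, and DESeq2 called 7, where it called 3.51% of all genes. In duodenum 10 had a row, each with an unadjusted p under 0.05 in the authors' deposited table, as every row had, and none was called there, by edgeR or by DESeq2.

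**Figure D5:**
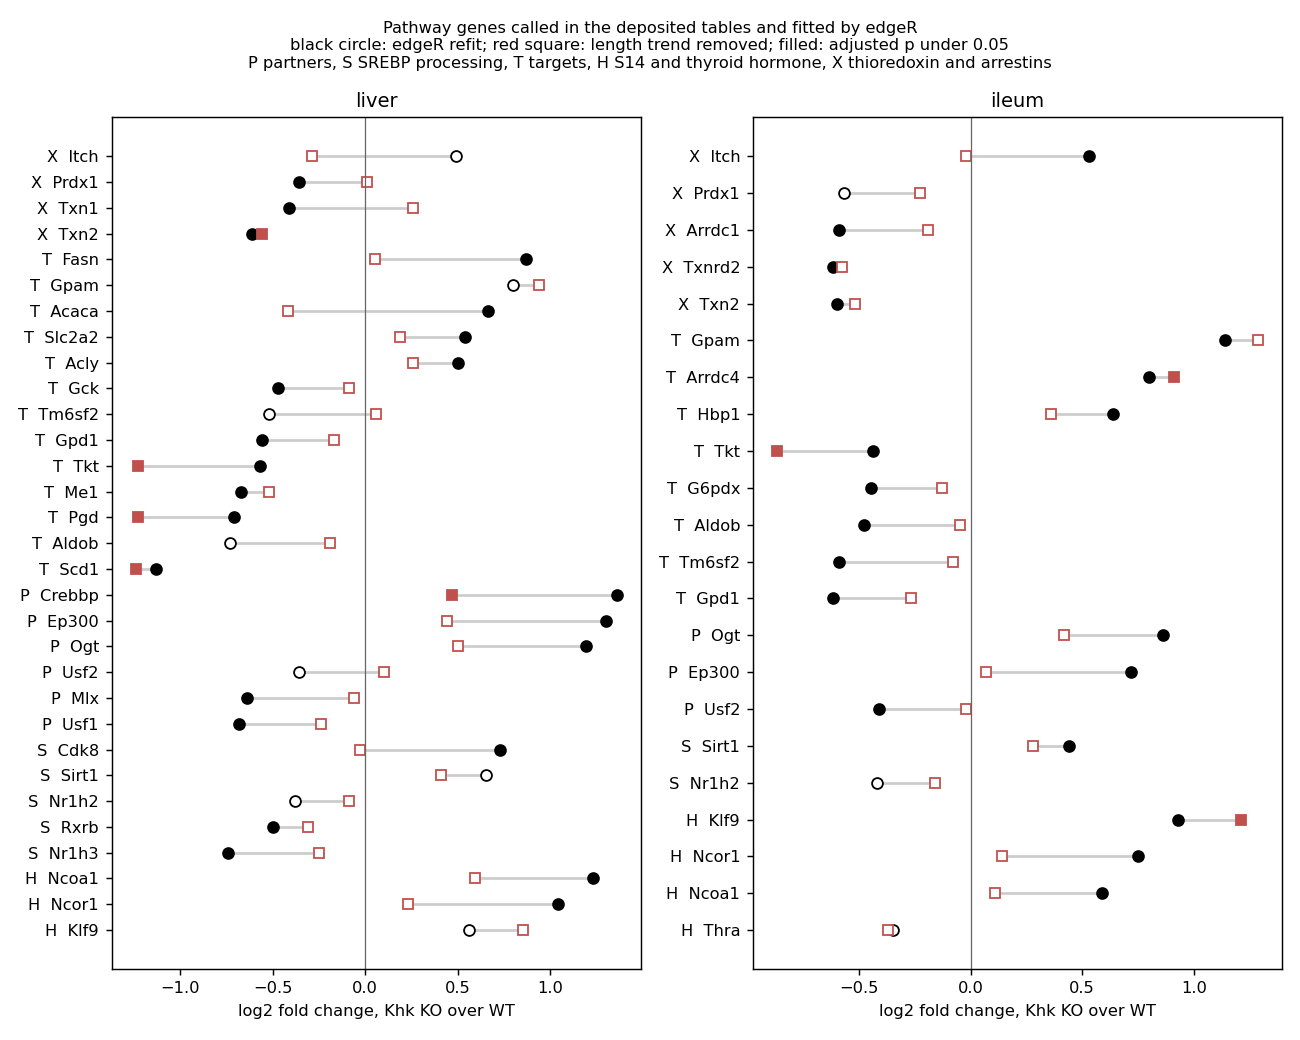
Log2 fold change of KO over WT (horizontal axis) of pathway genes called in the authors' deposited tables and fitted by edgeR (vertical axis, letter of the list and symbol) in liver and ileum, from the edgeR refit (black circles) and with the length trend removed (red squares); filled symbols have an adjusted p under 0.05. Fasn moves to near 0 when the length trend is removed, and Scd1 in liver does not.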

How the data were processed

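RNA-seq of 32 mouse libraries was used, 4 per genotype in each of 4 organs. Per the labels, poly(A) RNA was purified with oligo-dT beads and primed with random hexamers. HISAT2 2.0.5 and build GRCm38 (mm10) come from the submitters' processing notes; the counting program and its strand setting are not given in the sources used here. Each deposited table holds raw read counts per gene, the same counts divided by a size factor per library (a normalised signal), FPKM, and log2 fold changes with p-values from the authors' own test, all per the file headers. Each deposited table lists only genes with p under 0.05. The number of genes the authors adjusted over was recovered from the deposited p-values and adjusted p-values: 18225 for liver, 15615 for duodenum, 9881 for jejunum and 16034 for ileum. An adjusted p deposited as 1 was read as not adjusted (20, 137, 759 and 439 genes).

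Counts were refitted per organ with edgeR 4.0.16 (filterByExpr, TMM, glmQLFit and glmQLFTest, R 4.3.3), with library totals recovered from counts and FPKM, and p-values were adjusted by Benjamini-Hochberg over the number of genes above; called means an adjusted p under 0.05. The alternatives were the authors' size factors, no filter, removal of the trend over gene length or GC content (lowess, span 0.5), a replicate block, adjustment over the table alone, DESeq2 1.42.0, and leaving out each library. Exact permutation tests over the 70 assignments of 4 of 8 libraries were run with scipy 1.17.1. Gene positions equal those of GENCODE M21 for all members. All members matched RefSeq promoter entries of GRCm38.p6. The members and the gene lists were chosen with earlier results of these data known. Genes named beside the members are Khk, the pathway genes called in the authors' deposited table (up to 8 per list and organ by size of fold change), and the 3 protein-coding genes with a mean normalised count of at least 100 nearest to each member in pattern. Marker genes and the genes called after removal of the length trend were named after their values were seen. A listed pathway gene that enters the counts is not reported here by name or in the plot of pathway genes.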

Additional observations from a re-analysis of the deposited data

How the results depend on the processing

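The tables list only genes the authors found at p under 0.05, so the dispersion, the scaling and the trends over length and GC content were estimated on selected genes, and low counts limit Thrsp in jejunum and ileum. The fits with a trend removed used the authors' size factors. Those factors alone gave 2821 called genes in liver, 1 in duodenum and 1585 in ileum. With the length trend removed, the edgeR log2 fold change was 0.42 for Mlxipl in liver and -0.76 for Thrsp in ileum, both no longer past the threshold, and -0.53 for Srebf1, then past it; the genes called were 786 in liver, 2 in duodenum and 476 in ileum, and the pathway genes 7 in liver and 4 in ileum, against 2675, 1 and 2221 genes and 23 and 22 pathway genes in the refit as reported. With the GC trend removed, Srebf1 turned to 0.14, Thrsp in ileum was at -1.04 (adjusted p = 0.145), and 933 genes and 7 pathway genes were called in ileum; the cause was not tested. With the authors' size factors Thrsp in ileum was at -1.28 (adjusted p = 0.06) and 14 pathway genes were called there, and the share of higher genes among the ileal calls was 65.9%, against 54.1% with TMM. Adjustment over the table alone, by construction over fewer genes, put Srebf1 (-0.32) and Thrsp in liver (-0.60) past the threshold and gave 5198, 4, 1175 and 4494 genes in liver, duodenum, jejunum and ileum, with 37 pathway genes in liver and 10 in jejunum. DESeq2 called 4411, 37, 347 and 3520 genes and 7 pathway genes in jejunum.

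Pairing was checked between each KO library and the same-numbered WT library of its organ, which come from different mice. Whether same-numbered libraries of different organs came from the same mouse was not examined. Within organs the replicate numbers did not meet the rule for pairing, a correlation of deviations over 0.1 for every same-numbered pair: it lay between -0.10 and 0.06 (liver), -0.27 and 0.23 (duodenum), -0.16 and -0.01 (ileum), and 0.05 and 0.31 (jejunum). In jejunum all were positive and 5 of 8 libraries correlated best with their own number, against 0 to 3 elsewhere, a hint from the data and not from the design. With the replicate block Thrsp was at -0.54 in liver (adjusted p = 0.0454) and at -1.17 in ileum (adjusted p = 0.0802), 0 genes were called in jejunum and 1202 in ileum, with 13 pathway genes in ileum, and Khk in jejunum was at -3.34 (adjusted p = 0.128). With the replicate block and the length trend removed, Mlxipl in liver was at 0.42, Srebf1 at -0.52, Thrsp in ileum at -0.72, the genes called were 635 in liver, 5 in jejunum and 281 in ileum, and the pathway genes 8 in liver and 4 in ileum.

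Leaving out 1 library at a time gave 0.62 to 0.78 for Mlxipl in liver and 0.37 to 0.55 in duodenum, -0.43 to -0.24 for Srebf1, -0.83 to -0.34 for Thrsp in liver, -1.39 to -0.49 in jejunum and -1.45 to -0.92 in ileum, and 0.49 to 0.72 for Txnip. It gave between 9 and 4860 called genes for liver, between 1 and 2 for duodenum, between 1 and 3 for jejunum and between 663 and 2912 for ileum, and 1 to 38 pathway genes in liver and 7 to 29 in ileum.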
